A study of Mus musculus with 16 samples.

Results

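The loci described here are 27 microRNA genes, chosen by their measured fragment counts from 1172 microRNA loci among the 24984 genes of a deposited mouse count table. A locus was selected on a symbol of Mir followed by a digit, or Mirlet7, and on at least 10 counted fragments in every DP sample or in every CD8 sample. Mir142 and the host genes whose symbols end in hg were left out by the same choice. The counts let 26 loci in through DP cells and 7 through CD8 cells, with 6 passing in both, and Mir3113 entered through CD8 cells alone. Because counts chose the loci, their levels are given as a description and were not tested.

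Poly(A) RNA was sequenced from mouse thymocytes to ask how gene expression differs without Tox4, a chromatin protein that associates with the PP1 phosphatase. There were 3 control and 3 cKO samples of DP cells, which carry both CD4 and CD8, and 5 control and 5 cKO samples of CD8 thymocytes. The depth, as the sum of counts over genes, was 14583336 to 25981683 in DP samples and 8514135 to 13530783 in CD8 samples. Control mice had the genotype Tox4;F/F, with both Tox4 copies floxed and no Cre. The cKO mice had the same floxed alleles with Cre driven by Lck, labelled Tox4;F/F;Lck+ for DP cells and Tox4;F/F;Lck-cre for CD8 cells. The deleted part is exons 4 to 6, mice were 6 to 8 weeks old, and the labels give no strain. Lck-Cre acts in the T lineage from early thymocytes on, so both cell types had passed the deletion, and no control carried Cre without floxed alleles. The labels number the replicates and do not say how the libraries relate to animals, so p-values measure the spread between these samples.

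A microRNA is cut from a long primary transcript, often the intron of a host gene, first by Drosha with Dgcr8 in the nucleus and then by Dicer in the cytoplasm. The mature strand guides Argonaute proteins to messenger RNAs that pair with its seed, and in thymocytes the miR-181 family is known for tuning the sensitivity of the T cell receptor. Mature strands carry no poly(A) tail, so fragments counted here on a microRNA locus come from primary transcripts, host transcripts or other poly(A) RNA that covers the hairpin, and say nothing of the amount of mature microRNA.

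Mature sequences from RefSeq (GRCm38.p6) were found for 26 of the 27 loci, 39 strands in all, and none was found for Mir684-1. All 39 seeds differed, so no 2 of these 26 loci shared a seed. The strands shown belong to the loci with the highest counts, to the families studied in thymocytes and to the loci whose groups stood apart in DP cells. They are written 5′ to 3′, with the seed, bases 2 to 8, in capitals.
mmu-miR-5125: uCUGCCUGggauuuccuugu
mmu-miR-3064-5p: uCUGGCUGuuguggugugcaaa
mmu-miR-3064-3p: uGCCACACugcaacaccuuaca
mmu-miR-7a-5p: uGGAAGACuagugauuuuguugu
mmu-miR-3113-3p: uCCUGGCCcugguccugguc
mmu-miR-181b-5p: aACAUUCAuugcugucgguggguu
mmu-miR-128-3p: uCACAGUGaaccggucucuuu
mmu-miR-682: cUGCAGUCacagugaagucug
mmu-miR-8091: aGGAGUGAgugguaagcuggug
mmu-miR-6990-5p: cCCAGGGUgagucagggcucu
mmu-miR-6999-5p: aAGGAAGGagagucagcaagcac

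What was counted is the whole annotated hairpin. It is shown for the most abundant pair of loci, here with the mature strands in capitals. Mir5125 lies at chr17:23823291-23823369 on the plus strand and Mir3064 at chr11:106782693-106782759 on the minus strand, in mm10.
Mir5125: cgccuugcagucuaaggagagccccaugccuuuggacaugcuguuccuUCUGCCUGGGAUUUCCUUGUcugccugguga
Mir3064: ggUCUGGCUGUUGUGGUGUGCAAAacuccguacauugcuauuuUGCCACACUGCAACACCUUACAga

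Labels were first checked against the data. Levels are given throughout as CPM, counts scaled to library size by edgeR's TMM method. Tox4 stood at 153.9, 172.0 and 180.3 CPM in DP control replicates 1 to 3, and at 132.6, 141.2 and 131.2 in the cKO replicates. All 3 DP cKO samples were below all 3 controls (log2 fold change -0.32, SE 0.11, edgeR adjusted p = 0.381), and an exact 2-sided permutation test gave p = 0.1, the smallest that 3 against 3 allows. In CD8 cells Tox4 was 197.0, 187.8, 200.1, 201.4 and 178.0 CPM in control replicates 1 to 5, and 168.6, 185.4, 176.0, 233.6 and 164.1 CPM in the cKO replicates. The library labelled cKO replicate 4 was above every CD8 control, so it goes against its label on this measure, with a log2 fold change of -0.06 when it was kept (edgeR adjusted p = 0.979) and -0.15 when it was left out. Counts on the whole gene include exons outside the deleted part, which limits this check.

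All listed markers of DP and of CD8 cells had counts in every sample of both types, so the levels are what can check the labels. The 8 listed DP markers summed to 13958 to 18026 CPM in DP samples, led by Rag1, and to 2108 to 2675 CPM in CD8 samples. The 8 listed CD8 markers summed to 4437 to 6828 CPM in CD8 samples and to 2957 to 4289 CPM in DP samples. Cd8a, the most abundant of them, is in both lists and does not separate the cell types, at 1295 to 1606 CPM in CD8 samples and 1418 to 2425 CPM in DP samples. Among the CD8 samples, Cd4 was 60.9 and 65.3 CPM in control replicates 1 and 2, against 5.91, 3.58 and 10.2 CPM in control replicates 3 to 5. The cKO samples were split in the same way by number, with Cd4 at 66.7 and 76.4 CPM in replicates 1 and 2 against 6.30, 5.79 and 7.13 CPM. The summed level of the 4 listed CD4-lineage markers was 86.1 to 95.3 CPM in the 4 samples numbered 1 or 2 and 12.4 to 29.7 CPM in the other 6. The CD8 cells had been sorted on TCR beta and CD8. Of 4 listed gamma-delta T cell markers, Sox13 and Blk were in the table, led by Sox13, and the receptor genes Trdc and Tcrg-C1 were not. Their sum was 7.29, 5.51, 5.51, 3.21 and 3.498 CPM in CD8 controls and 18.7, 9.01, 8.10, 9.61 and 10.3 CPM in CD8 cKO samples, without overlap. Sox13 alone was at 2.02 to 7.07 CPM in CD8 controls and 7.56 to 14.7 CPM in CD8 cKO samples. The rest of each sum, Blk, overlapped between the groups. The 4 listed B cell markers, led by Cd79a, summed to 27.8 and 9.73 CPM in CD8 control replicates 1 and 2. They summed to 11.3 and 10.7 CPM in cKO replicates 1 and 2, and to 2.75 to 6.78 CPM in the other 6 samples. Sums of the 5 myeloid markers were split in the same way, at 4.77 to 7.72 CPM against 1.80 to 3.70 CPM. Those of the 5 thymic epithelial markers were 5.55 CPM in control replicate 1 and 0.690 to 3.23 CPM in the other 9 samples. The part of these markers' cells in the CD8 results was not tested. CD8 control replicate 1 also stood apart by depth of detection, since 17741 genes had a count there, while the other controls had 13708 to 14194.

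By position, 15 of the loci lay within an intron of a gene on the same strand in the deposited annotation. Another 2 overlapped an exon, 8 lay outside every gene of that strand, and 2, Mir5098 and Mir684-1, are annotated at several places. The corresponding totals among all 1172 loci were 533, 153, 418 and 68, so the chosen loci were 2.81%, 1.31%, 1.91% and 2.94% of each class. Position outside a gene of the table does not always mean outside a transcript. In the GENCODE annotation of the same build, any overlap was taken and its length was not measured. There Mir181b-1 overlaps an exon of the long noncoding RNA A430106G13Rik, and Mir5103 one of Gm37233. Mir568, Mir3061 and Mir7652 overlap exons of Zbtb20, Ppp2ca and G3bp1. Some loci that are intronic in the deposited annotation also overlap exons of GENCODE transcripts, namely Mir6990 (Esrra), Mir3101 (Rab4b), Mir3113 (Huwe1), Mir1839 (2900076A07Rik) and Mir6516 (Snhg20). At the last 2, GENCODE also has a small Cajal body RNA, and counts of the 2 kinds of RNA cannot be told apart there. Mir682 overlaps the processed pseudogene Gm4149, so fragments from other copies of that sequence may have been counted there. Mir8091 and Mir703 lie in no GENCODE gene on their strand, and Mir8091 begins 28870 bases downstream of Lcor.

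Host genes of the 15 intronic loci had a median level in DP cells of 149.9 CPM (7.69 to 1504 CPM). Hosts of the 518 other intronic microRNA loci had a median of 17.8 CPM. Since the loci were chosen by counts, this difference was not tested.

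Among the 1172 loci, 512 had a count in any sample and 660 had none. Just inside the minimum in DP cells were Mir684-1, whose lowest count in a sample was 10, and Mir128-2 and Mir1931, with 11 each. Just outside it were Mir7227, with a lowest count of 8, and Mir186, Mir25, Mir140, Mir7687, Mir3067 and Mir6942, with 7 each. A minimum of 5 counts would have let in 42 loci and a minimum of 20 would have let in 11. These edge loci were named after their values were seen.

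Counts were uneven across the loci. The mean level ran from 0.691 to 24.1 CPM in DP cells, with a median of 1.33 CPM, and from 0.0955 to 80.2 CPM in CD8 cells, with a median of 1.33 CPM. Mir5125 and Mir3064 together held 47.5% of the loci's counts in DP cells and 68.8% in CD8 cells. Levels of the DP and CD8 tables were normalized separately, and cell type and table cannot be told apart. In bulk RNA, fewer cells of a type and less RNA per cell cannot be told apart either.

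**Figure D1:**
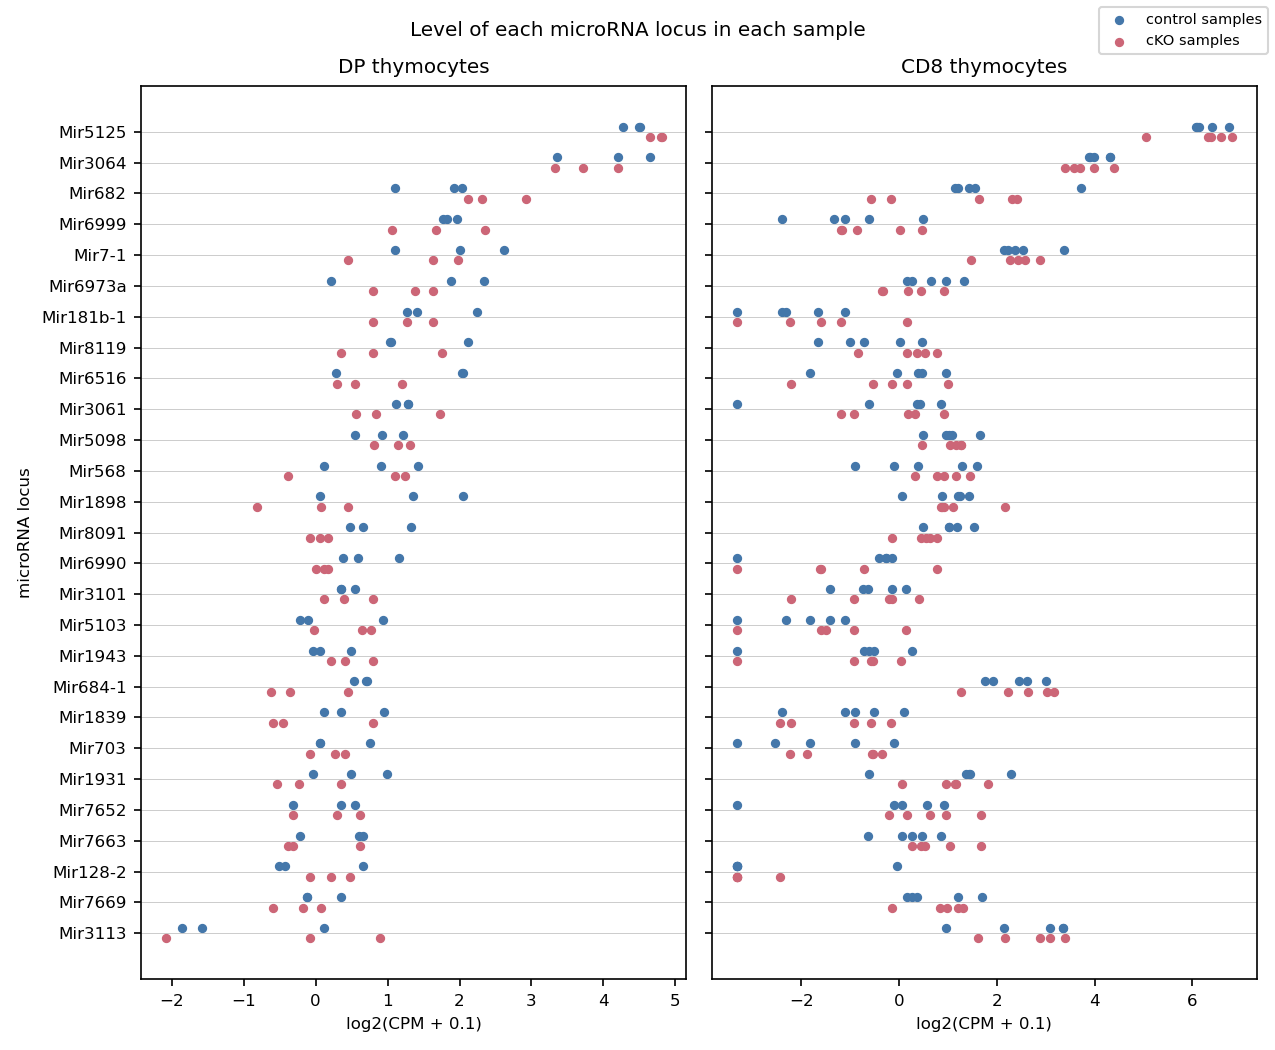
Level of each of the 27 loci in each sample, as log2 of CPM plus 0.1, with control samples in blue and cKO samples in red. Loci are ordered by their mean in DP cells, and the axes of the DP and CD8 panels differ. Mir5125 and Mir3064 lie to the right of all other loci in DP cells, and Mir3113 has the lowest mean in DP cells and the third highest in CD8 cells.

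Mir5125, in an intron of the splicing factor gene Srrm2, was the most abundant locus in both cell types. In DP cells it measured 19.2, 22.5 and 22.7 CPM in the controls and 27.9, 27.7 and 24.9 CPM in the cKO samples. All DP cKO values were above all DP control values. Its CD8 levels were 106.8, 84.3, 67.6, 70.4 and 68.6 CPM in the controls and 95.9, 112.5, 83.4, 33.0 and 79.8 CPM in the cKO samples. There the groups overlapped, and the lowest of the 10 values came from the library labelled cKO replicate 4. Per kilobase of annotated length, the locus had a mean of 306 CPM in DP cells and 1016 CPM in CD8 cells, against 169 and 440 CPM per kilobase for the exons of Srrm2, so the intronic hairpin was counted more densely than the host's exons.

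Comparisons per kilobase carry a limit. The 25 loci with a single place span 56 to 139 bases, and a fragment that touches such a locus can extend beyond it, which raises its level per kilobase relative to that of a long gene. How fragments that overlap more than 1 gene were counted is not given in the sources used here.

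Mir3064 overlaps an annotated exon of Ddx5, an RNA helicase that works with Drosha, by 1 base. It measured 10.1, 18.3 and 25.0 CPM in DP controls and 9.97, 18.2 and 13.0 CPM in DP cKO samples. Both samples numbered 1 were the lowest of their group, and the groups overlapped. The CD8 values were 19.7, 19.9, 14.7, 15.8 and 14.9 CPM in controls and 12.9, 20.9, 11.9, 10.4 and 15.7 CPM in cKO samples, also overlapping. Ddx5 itself averaged 456.5 CPM per kilobase in DP cells and 346 in CD8 cells, and the locus 235 and 234 CPM per kilobase.

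Mir7-1 lies in an intron of Hnrnpk, an RNA-binding protein gene, and makes miR-7a. Its DP values were 2.05, 3.92 and 6.02 CPM in controls and 1.27, 3.83 and 2.98 CPM in cKO samples. Again the samples numbered 1 were lowest in each genotype. CD8 controls had 10.2, 4.31, 4.61, 5.69 and 5.10 CPM and CD8 cKO samples had 5.28, 7.31, 5.85, 2.66 and 4.71 CPM. The highest value was that of control replicate 1 and the lowest that of the library labelled cKO replicate 4. Its log2 fold change in CD8 cells was -0.20 with every sample and 0.07 without control replicate 1.

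Of the 45 loci of microRNA families studied in thymocytes, 2 passed the count minimum, Mir181b-1 and Mir128-2, and 18 had no count in any DP sample. Mir181b-1, of the miR-181 family, measured 4.63, 2.56 and 2.30 CPM in DP controls and 3.01, 1.64 and 2.32 CPM in DP cKO samples. The sample numbered 1 was the highest of each genotype. Its CD8 levels ran from 0 to 0.367 CPM in controls and from 0 to 1.02 CPM in cKO samples, and as it was let in by its DP counts, its lower CD8 level is not a result. The same holds for Mir128-2. Mir181a-1, the neighbour of Mir181b-1, had only 1 to 10 counts in a DP sample.

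Mir128-2 lies in an intron of Arpp21, which encodes an RNA-binding protein of thymocytes and neurons. It measured 0.645, 0.600 and 1.47 CPM in DP controls and 0.847, 1.30 and 1.06 CPM in DP cKO samples, with overlapping groups. Of the 10 CD8 samples, control replicate 1 had 0.870 CPM, cKO replicate 2 had 0.085 CPM and the others had no count. Its host Arpp21 measured 697.7, 634.0 and 674.7 CPM in DP controls and 750.0, 663.7 and 618.0 CPM in DP cKO samples. In CD8 cells it was 52.3, 58.9, 19.1, 13.95 and 16.98 CPM in controls and 60.4, 61.0, 24.2, 25.2 and 27.1 CPM in cKO samples. The cKO value was higher than the control value of the same number in all 5 pairs, and the log2 fold change was 0.31 (SE 0.41) without the replicate block and 0.40 (SE 0.13, edgeR adjusted p = 0.285) with it. The CD8 samples numbered 1 and 2 were highest for Arpp21, the same samples that were highest for Cd4, and whether these go together was not tested.

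Other loci of these families stayed below the minimum. Mir425 had 4 to 41 counts in a DP sample, Mir20a 0 to 18, Mir16-1 2 to 13 and Mir17 3 to 8, and Mir150, Mir155 and Mir223 had none in either cell type. Of the 9 host genes ending in hg, Mir17hg, Mir155hg and Mir22hg had enough counts to be tested. Mir17hg, from which the miR-17 cluster is cut, measured 7.04, 13.4 and 13.9 CPM in DP controls and 10.02, 15.7 and 6.95 CPM in DP cKO samples. Its groups overlapped, and its log2 fold change was -0.08 in DP cells and -0.26 in CD8 cells, or -0.09 there without the library labelled cKO replicate 4.

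Mir3113, the locus that entered through CD8 cells, lies within Huwe1, a ubiquitin ligase gene, where GENCODE has a transcript with a retained intron. In DP cells it measured 0.235, 0.981 and 0.177 CPM in controls and 0.847, 0.137 and 1.77 CPM in cKO samples. The CD8 values were 1.85, 4.31, 10.1, 8.35 and 10.1 CPM in controls and 2.98, 4.42, 10.3, 8.45 and 7.24 CPM in cKO samples. In both genotypes the CD8 replicates 1 and 2 were lower than replicates 3 to 5, the reverse of Cd4, and the 2 genotypes overlapped. The part of the cells' composition in this was not tested. Since its counts in CD8 cells alone let this locus in, its higher level there is not a result. Huwe1 measured 63.2 CPM per kilobase in DP cells and 110.5 in CD8 cells, and the locus 9.09 and 89.7 CPM per kilobase.

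Mir684-1 is annotated at 9 places. It measured 1.35, 1.53 and 1.53 CPM in DP controls and 1.27, 0.683 and 0.550 CPM in DP cKO samples, with all cKO values below all controls. The CD8 levels were 3.26, 7.98, 5.41, 3.67 and 6.05 CPM in controls and 8.85, 2.29, 4.61, 6.14 and 8.05 CPM in cKO samples, with overlapping groups. Counts on several places may come from more than 1 source.

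**Figure D2:**
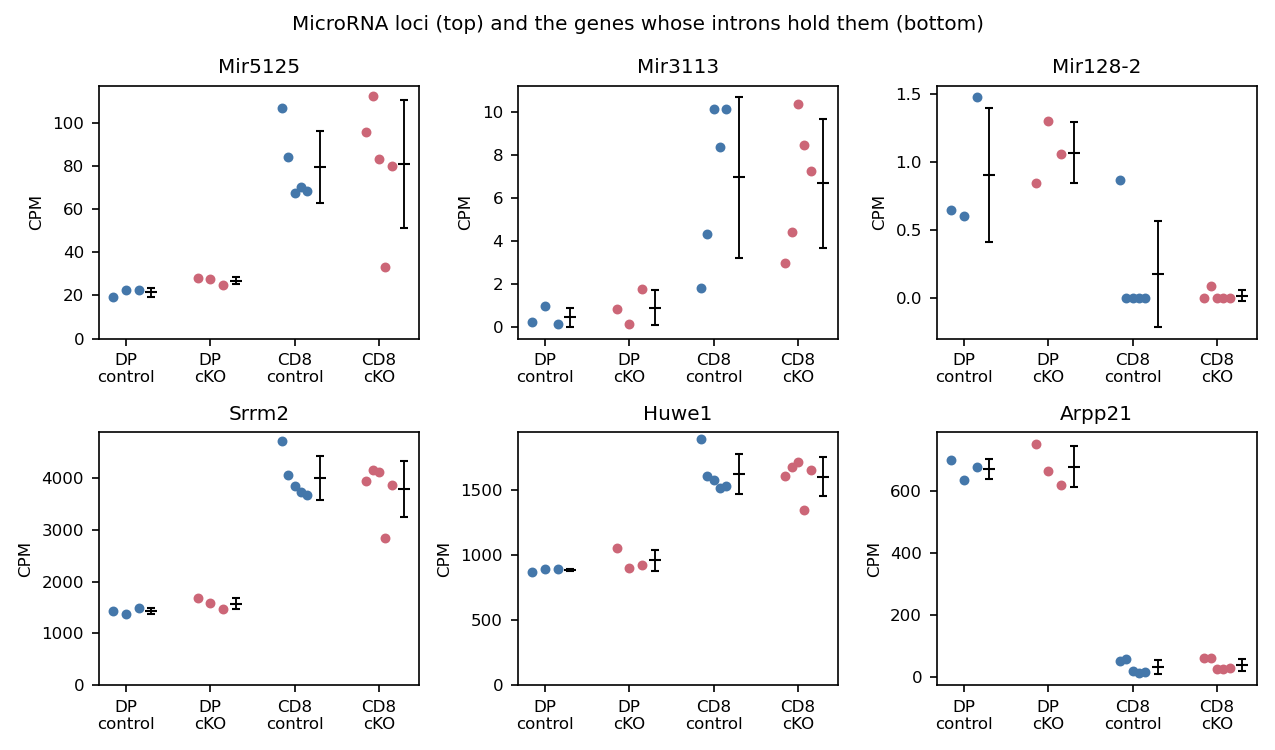
Level in CPM of 3 loci (top) and of the genes whose introns hold them (bottom) in every sample, control in blue and cKO in red, with the mean and SD beside each group. Arpp21 is higher in every DP sample than in every CD8 sample, while Mir128-2 in CD8 control replicate 1 (0.870 CPM) lies among its DP values (0.600 to 1.47 CPM). Mir3113 measures 0.137 to 1.77 CPM in DP cells and 1.85 to 10.3 CPM in CD8 cells, where Huwe1 measures 1347 to 1894 CPM.

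The comparison of cKO with control in DP cells tested 11748 genes with edgeR, all 27 loci among them. A call needed a mean TPM of 1 or more, a change of 1.5-fold or more and an edgeR adjusted p below 0.05, and 0 of the 27 loci were called where 17 genes (0.145%) were. When the edgeR fit took replicate numbers as blocks, the loci called were again 0 against 131 genes (1.12%), and by DESeq2 0 against 163 of 16897 genes (0.965%). An unadjusted p under 0.05 was reached by 3 of the 27 loci in edgeR beside 9.18% of all genes, by 4 with the block beside 16.5% and by 2 in DESeq2 beside 7%. These shares are near the background.

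The 3 in edgeR were Mir1898, Mir5125 and Mir8091. With the block they were Mir1898, Mir5125, Mir682 and Mir6516, and in DESeq2 Mir1898 and Mir682, so Mir1898 alone was in all of them. Mir1898 and Mir6516 were named after their values were seen. Mir1898, in an intron of the RNA-binding protein gene Zfr, measured 2.46, 4.03 and 0.944 CPM in DP controls and 1.27, 0.957 and 0.471 CPM in cKO samples. Its groups overlapped, with the high values in control replicates 1 and 2 (log2 fold change -1.48, SE 0.58, edgeR adjusted p = 0.456). At each replicate number the cKO value was below the control value. With the block its log2 fold change was -1.35 (SE 0.39, edgeR adjusted p = 0.143). For Mir5125 the log2 fold change was 0.32 (SE 0.14, edgeR adjusted p = 0.518), and all 3 cKO samples were higher. Mir8091 measured 2.40, 1.47 and 1.30 CPM in DP controls and 0.847, 1.03 and 0.943 CPM in cKO samples. All 3 cKO values were lower than every control (log2 fold change -0.88, SE 0.39, edgeR adjusted p = 0.543), and the highest was control replicate 1, without which the log2 fold change was -0.57.

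Groups did not overlap for 5 of the 27 loci in DP cells, beside 15.1% of all genes tested, a share near the background. Marker sums of several lists also stood apart by genotype in these samples. The 8 markers of CD8 cells, with none at 0, summed to 4289, 3754 and 3806 CPM in controls and 3556, 2957 and 3244 CPM in cKO samples. Cd8a, which leads them, was at 2425, 2013 and 2020.1 CPM against 1828, 1418 and 1489 CPM. Without Cd8a, the sums of the other markers on that list overlapped between the groups. The study names Cd8a as a downregulated direct target of Tox4 in DP cells, and found Cd8 protein minimally affected. The 5 myeloid markers, led by Itgam, summed to 22.9, 37.6 and 19.5 CPM in controls and 17.5, 17.9 and 15.3 CPM in cKO samples, with Cd14 at 0 in 4 of the 6. Itgam itself overlapped, at 14.5, 10.3 and 9.20 CPM in controls and 12.5, 12.6 and 9.35 CPM in cKO samples. The 5 thymic epithelial markers, led by Epcam, summed to 5.34, 6.21 and 8.91 CPM and to 4.70, 3.49 and 4.71 CPM, with Foxn1 at 0 in all 6. The NK markers Klrb1c and Ncr1 summed to 1.41, 1.04 and 0.236 CPM and to 0.188, 0.205 and 0.118 CPM, with Ncr1 at 0 in 5. The 5 markers of fibroblasts and endothelium, nearly all Pecam1, were higher in cKO samples, at 151.5, 145.1 and 145.9 CPM against 151.97, 153.4 and 155.3 CPM, with Col3a1 at 0 in all 6. By the study's account, the DP cells for RNA-seq had been sorted. What part these markers' cells had in the values of the loci was not tested. The loci above control were Mir5125 and Mir682, and those below were Mir684-1, Mir6990 and Mir8091. Mir682 measured 2.05, 3.71 and 4.01 CPM in controls and 4.23, 7.52 and 4.87 CPM in cKO samples. It was highest in cKO replicate 2 (log2 fold change 0.76, SE 0.34, edgeR adjusted p = 0.548). Mir6990, within the nuclear receptor gene Esrra, overlaps an exon of a processed transcript in GENCODE. It measured 1.41, 1.20 and 2.12 CPM in controls and 0.988, 1.03 and 0.903 CPM in cKO samples. The cKO values were close together and below all controls (log2 fold change -0.70, SE 0.38, edgeR adjusted p = 0.645). For Mir684-1 the log2 fold change was -0.81 (SE 0.42, edgeR adjusted p = 0.626).

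The log2 fold changes of the 27 loci in DP cells ran from -1.48 to 1.02 with a median of -0.30, and 19 were below 0. The median of all genes tested was -0.001, with 50.2% below 0. Precision differed too, since the SE had a median of 0.42 for the loci (0.14 to 0.85) and 0.17 for all genes. Mir6999, in an intron of Dgkz, a gene that damps T cell receptor signalling, shows a value near 0. It measured 3.81, 3.43 and 3.30 CPM in controls and 5.03, 1.98 and 3.10 CPM in cKO samples, with cKO samples both highest and lowest (log2 fold change -0.05, SE 0.35). This fold change did not keep its sign or size when single samples were left out, and its range is given at the end.

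**Figure D3:**
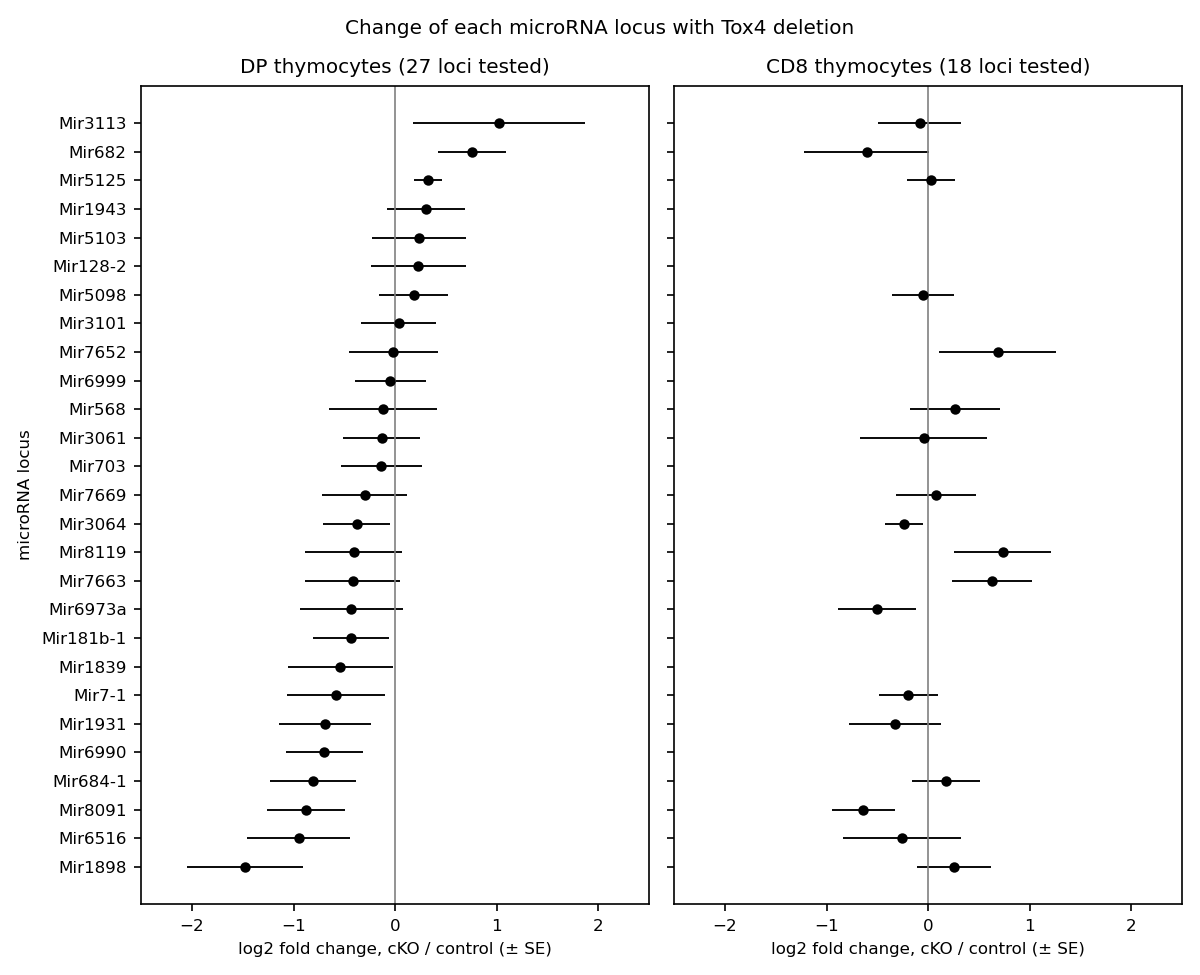
Log2 fold change of cKO over control with its SE for each locus tested, 27 in DP cells and 18 in CD8 cells, ordered by the DP value. Negative values are lower in cKO. DP values run from -1.48 to 1.02 and CD8 values from -0.64 to 0.73, and no locus passed the adjusted threshold in either.

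In CD8 cells 18 of the 27 loci had enough counts to be tested among 11227 genes. The other 9 were Mir5103, Mir181b-1, Mir6999, Mir703, Mir3101, Mir1839, Mir128-2, Mir1943 and Mir6990, so the tested loci are not the whole set. In edgeR 0 loci were called beside 11 genes (0.098%), and 0 had an unadjusted p under 0.05 beside 5.6% of genes. DESeq2 also gave 0 loci at either threshold, where 0.233% of 19757 genes were called and 3.56% had an unadjusted p under 0.05. With the replicate block it was 0 loci again, beside 0.276% of genes called and 8.76% with an unadjusted p under 0.05. Groups did not overlap for 0 loci, beside 1.5% of all genes tested.

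The CD8 log2 fold changes ran from -0.64 to 0.73 with a median of -0.05, beside -0.006 for all genes tested. The median was 0.04 without control replicate 1 and -0.02 without the library labelled cKO replicate 4. Mir8091 had the lowest, with 1.31, 1.93, 2.81, 1.93 and 2.19 CPM in controls and 1.36, 1.27, 1.46, 0.810 and 1.61 CPM in cKO samples. The 2 groups met at control replicate 1, and the other controls were above all cKO samples. Its log2 fold change was -0.64 (SE 0.31, edgeR adjusted p = 0.937), and an exact 2-sided permutation test, not adjusted for the other loci, gave p = 0.0317. This was the smallest of 11 loci tested in this way in CD8 cells, and the other 10 had p from 0.246 to 1. Without control replicate 1 it was -0.75 and reached an unadjusted p under 0.05 in edgeR (adjusted p = 0.701), the only locus to do so, and without the library labelled cKO replicate 4 it was -0.51. Mir8091 was thus lower on average in cKO samples of both cell types, and in neither did it pass the adjusted test.

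Other CD8 values rested on single libraries. Mir682 measured 13.1 CPM in control replicate 1 and 2.84, 2.61, 2.20 and 2.11 CPM in the other controls, and 5.19, 4.84, 0.787, 3.01 and 0.575 CPM in cKO samples. Control replicate 1 was the highest by far, and the log2 fold change was -0.61 with it and 0.28 without it. Mir5125 had a log2 fold change of 0.03 in CD8 cells and 0.23 without the library labelled cKO replicate 4. Summed over the 27 loci, the level was 175, 141, 132, 129.5 and 128.04 CPM in CD8 controls and 149, 175, 142, 82.8 and 146.1 CPM in cKO samples, lowest in that same library. In DP cells the sums were 73.5, 89.8 and 98.0 CPM in controls and 78.3, 91.4 and 74.8 CPM in cKO samples, with overlapping groups.

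Whether the change differed between the cell types was tested by an interaction in an edgeR fit of all 4 groups. Of 12131 genes 13 passed (0.107%), 0 of the 27 loci among them, and 0 loci passed with the replicate block, where 33 genes (0.272%) did. An unadjusted p under 0.05 was reached by 1 locus in edgeR beside 5.27% of all genes, and by 2 with the block, Mir1898 and Mir682, beside 9.65%. The 1 in edgeR was Mir1898, with a difference of 1.73 (SE 0.68, edgeR adjusted p = 0.841). Its CD8 values were 2.28, 2.20, 2.61, 1.74 and 0.947 CPM in controls and 1.70, 2.04, 1.80, 1.74 and 4.37 CPM in cKO samples. Those groups overlapped, with cKO replicate 5 highest and control replicate 5 lowest.

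In DP cells some values moved with the replicate number. The samples numbered 1 of both genotypes were below the mean of the samples numbered 2 and 3 by at least 1.5 times for 4 of the 27 loci, Mir3064, Mir6516, Mir7-1 and Mir6973a. They were above it by as much for 3, Mir181b-1, Mir8119 and Mir568. Among all genes tested the shares were lower, at 4.44% and 3.77%, and such shifts were not limited to the loci. These 7 were picked after their values were seen. The part of low counts in these ratios was not tested. Mir6516 measured 1.11, 4.03 and 4.01 CPM in controls and 1.13, 1.37 and 2.20 CPM in cKO samples. Mir6973a, in an intron of the lymphotoxin gene Ltb, measured 1.06, 3.60 and 4.95 CPM in controls and 1.65, 3.01 and 2.51 CPM in cKO samples. Both were lowest at number 1 in each genotype. Mir8119 overlaps an exon of Lck, the gene whose promoter drives the Cre, by 25 bases. It measured 4.22, 1.96 and 1.95 CPM in controls and 3.29, 1.64 and 1.18 CPM in cKO samples, highest at number 1, with a log2 fold change of -0.41 (SE 0.48). What the number stands for beyond a replicate is not in the labels.

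**Figure D4:**
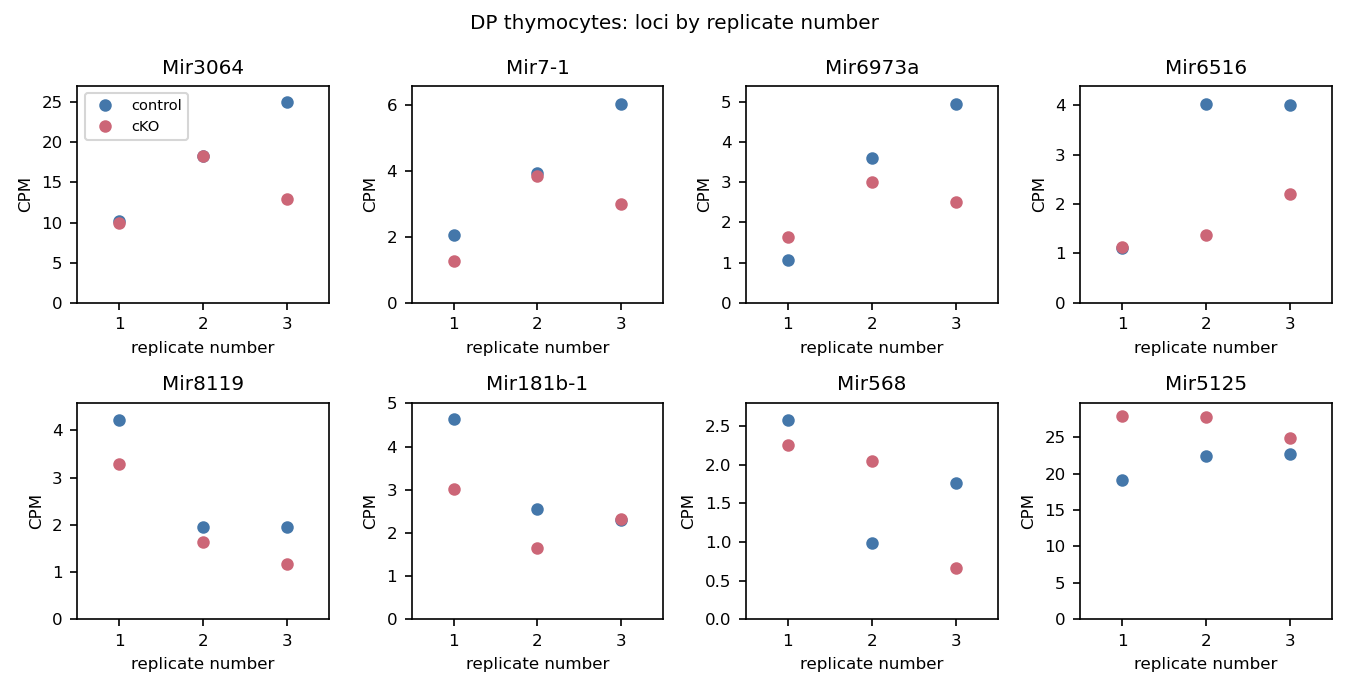
CPM of 8 loci in DP cells by replicate number, control in blue and cKO in red. Mir3064, Mir7-1, Mir6973a and Mir6516 are lowest, and Mir8119, Mir181b-1 and Mir568 highest, at number 1 in both genotypes. For Mir5125 all cKO points lie above all control points.

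The changes of the loci were set beside those of their host genes. In the deposited annotation 17 of the loci had a host or an overlapping gene, and the log2 fold changes of these genes ran from -0.43 to 0.23 in DP cells. Locus and host had the same sign in 11 of 17 pairs in DP cells, with a Spearman rho of 0.28 across pairs. In CD8 cells it was 6 of 11 pairs with a rho of 0.21, and host values ran from -0.25 to 0.10. Genes that overlap a locus in GENCODE alone, such as Zbtb20, Ppp2ca and G3bp1, are not among these pairs. Of these 3 genes, Zbtb20 had an unadjusted p under 0.05 in CD8 cells with the replicate block (log2 fold change -0.25, edgeR adjusted p = 0.468), and was singled out after its value was seen. Pairs share their libraries and, where loci overlap exons, possibly fragments, so these are descriptions. Per kilobase, a locus had a median of 39.8% of its host's exonic level in DP cells (1.91% to 180.3%) and 58.4% in CD8 cells (2.23% to 231%).

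Srrm2 measured 1428, 1379.6 and 1492 CPM in DP controls and 1677, 1583 and 1462 CPM in DP cKO samples, a log2 fold change of 0.13 (SE 0.10) where Mir5125 had 0.32. Its groups overlapped at cKO replicate 3. In CD8 cells Srrm2 was lowest in the library labelled cKO replicate 4, at 2843 CPM against 3674 to 4721 CPM in the other 9 samples, as Mir5125 was. The log2 fold changes of Ddx5, Hnrnpk, Huwe1, Arpp21, Dgkz and Esrra in DP cells were -0.18, -0.03, 0.12, 0.02, 0.17 and 0.05.

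The list of host genes, with the 9 genes ending in hg, held 26 genes, of which 20 were tested in each cell type. In edgeR 0 were called in either cell type, and likewise by DESeq2 and with the replicate block. In edgeR 1 of the 20 in each cell type had an unadjusted p under 0.05, which is no more than the share of all genes given above (9.18% in DP and 5.6% in CD8 cells). DESeq2 also gave 1 in each, and the block gave 1 in DP and, in CD8 cells, Arpp21 and Rab4b. The genes from edgeR are described only for their values, which were seen before they were named. In DP cells it was Cdk17, a cyclin-dependent kinase gene that holds Mir1931, at 279.0, 230.7 and 285.7 CPM in controls and 219.2, 205.0 and 165.6 CPM in cKO samples. All cKO values were below all controls (log2 fold change -0.43, SE 0.14, edgeR adjusted p = 0.346). The CD8 gene was Rab4b, an endosomal GTPase gene that holds Mir3101, with means of 59.2 ± 3.47 and 49.9 ± 5.88 CPM (SD, n = 5 each). Every cKO value was lower than every control (log2 fold change -0.25, SE 0.10, edgeR adjusted p = 0.807).

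The genes that make, load and degrade microRNAs were read from the same fits. Of 28 listed, 26 were in the table and 23 were tested in each cell type. In edgeR 0 were called and 0 had an unadjusted p under 0.05 in either cell type, beside 9.18% of all genes in DP and 5.6% in CD8 cells, and DESeq2 and the replicate block also called 0. At an unadjusted p under 0.05 there were 0 in DESeq2 in either cell type and, with the block, 1 in DP and 0 in CD8 cells, beside 16.5% and 8.76% of all genes. The 1 was Xrn1, named after its value was seen (log2 fold change with the block -0.31, edgeR adjusted p = 0.190). It measured 441, 319 and 306 CPM in DP controls and 362, 304.7 and 207 CPM in cKO samples, with overlapping groups. Without the block, the log2 fold changes of the 23 genes in DP cells ran from -0.29 for the exonuclease gene Xrn1 to 0.26 for the export factor Ran, with a median of -0.02. In CD8 cells they ran from -0.18 for the methyltransferase gene Mettl3 to 0.22 for Ran, with a median of -0.04.

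Among the core enzymes, Drosha averaged 101 CPM in DP controls and 108 CPM in DP cKO samples, and 96.6 and 92.2 CPM in CD8 cells. Its partner Dgcr8 averaged 102 and 103 CPM in DP cells and 75.4 and 75.0 CPM in CD8 cells. Dicer1 averaged 185 and 183 CPM in DP cells and 224 and 225 CPM in CD8 cells. The log2 fold changes of these 3 genes were 0.09, 0.01 and -0.02 in DP cells and -0.06, -0.01 and 0.01 in CD8 cells, each smaller than its SE.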

How the data were processed

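The authors filtered reads with fastp 0.13.1, aligned them with HISAT2 2.1.0 to mm10, counted fragments per gene with featureCounts 1.6.1 and deposited raw counts, per the labels' processing notes of the submitters. Positions and exonic lengths in the DP table were used for both cell types, and GENCODE of the same build for other transcripts. Columns of the CD8 table named Ctrl and Tox4_KO were taken as control and cKO samples.

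CPM, per-kilobase levels and fold changes were computed here. Each cell type was fitted by itself with edgeR 4.0.16 (R 4.3.3; TMM, filterByExpr, quasi-likelihood F test, Benjamini-Hochberg adjustment over all genes tested), and the interaction in a fit of all 4 groups. Exact permutation tests used scipy 1.17.1 and figures matplotlib 3.10.9. All tests were 2-sided. The scripts were tested on simulated data. Alternatives were DESeq2 1.42.0, RLE normalization, no filter on low counts, the replicate number as a block, each sample left out in turn, both CD8 samples numbered 1 left out, other count minimums, and ranks per kilobase. The thresholds for calls are those of the study's methods.

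Named loci were those called in either cell type, the 5 with the highest mean CPM in each table, up to 3 with the largest rise and 3 with the largest fall among those whose groups do not overlap, those of microRNA families studied in thymocytes, their host or overlapping genes, and Tox4. The text says where any other gene was picked on its values. The loci, lists and tests were chosen with earlier results of these data known.

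Deviations from the group means correlated across genes between DP samples of the same number (0.643, 0.120 and 0.290), and the number entered as a block as an alternative. Only the samples numbered 1 were most alike to each other, since control replicate 2 was more like cKO replicate 3 (0.324) and control replicate 3 more like cKO replicate 2 (0.297). No pair of libraries was alike to counting error (chi-square per degree of freedom 5.91 to 64.4). Zcchc11 and Zcchc6 of the processing list were not analysed here. Without molecular identifiers, fragments are not independent molecules.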

Additional observations from a re-analysis of the deposited data

Results flagged for a closer look

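Among 38 groups of 5 CD8 samples, for the named loci, their host genes and Tox4, 8 held a value that stood far from the other 4. Chance gives this in about 1 in 20 groups of normally spread values. That rate does not hold for either group of Mir128-2, where the other 4 values were 0 and any count would stand apart. In control replicate 1, Mir128-2 was high at 0.870 CPM, Mir682 at 13.1 CPM, Mir7-1 at 10.2 CPM and Huwe1 at 1893.7 CPM, and Mir6990 was low at 0 CPM. In the library labelled cKO replicate 4, Hnrnpk was high at 644.3 CPM and Srrm2 low at 2842.6 CPM. In cKO replicate 2, Mir128-2 was the only value above 0, at 0.085 CPM. Of the 8 values 5 came from control replicate 1, the library with a count on 17741 genes. Groups of 3 DP samples were not examined in this way.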

How the results depend on the processing

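No microRNA locus, processing gene or host gene was called under any alternative run, in either cell type, and no locus passed the interaction. The number of all genes called moved. In DP cells it was 17, and 74 without a filter, 131 with the replicate block, 163 by DESeq2 and 0 to 8 with a sample left out. In CD8 cells it was 11, and 31 with the block, 46 by DESeq2, 5 without both samples numbered 1 and 4 to 20 with a sample left out, highest without the library labelled cKO replicate 4. The interaction passed 13 genes, 33 with the block, 6 without both CD8 samples numbered 1 and 0 to 11 with a sample left out. The cause was not tested.

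Of 34 log2 fold changes of named genes, 12 changed sign in some alternative, in 37 of 415 values. With the block, the CD8 values of Mir3113 and Mir5125 were 0.01 and -0.04. Without a filter, that of Dgkz was 0.00. Without both CD8 samples numbered 1, Mir684-1 was -0.15, Mir7-1 0.07, Dgkz 0.00, Esrra -0.13 and Huwe1 0.04. With a sample left out, the CD8 values ran from -0.32 to 0.11 for Mir3113, -0.12 to 0.23 for Mir5125, -0.93 to 0.28 for Mir682, -0.02 to 0.39 for Mir684-1, -0.36 to 0.07 for Mir7-1, -0.09 to 0.08 for Dgkz, -0.14 to 0.10 for Esrra, -0.05 to 0.04 for Huwe1 and -0.12 to 0.00 for Srrm2. The DP values ran from -0.45 to 0.20 for Mir6999, -0.06 to 0.09 for Arpp21 and -0.09 to 0.02 for Hnrnpk. The other 378 values kept their sign.

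A minimum of 20 counts would keep 11 of the 27 loci, and the SE of a DP log2 fold change had a median of 0.42 for the loci and 0.17 for all genes. CD8 replicates share a number, with correlations of 0.0908 to 0.365 between samples of the same number, and not every sample was most alike to the one of its own number. A sample left out of a DP group leaves 2. Ranked per kilobase in place of CPM, Mir5125 and Mir3064 were still 1 and 2 in both cell types, and Mir684-1, with its long annotation, moved from 19 to 27 in DP cells and from 4 to 18 in CD8 cells.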
